A study of Mus musculus with 35 samples.

Results

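Interferon response and antigen presentation genes were followed across sorted cell subpopulations of the mouse mammary gland. A list of 49 genes had been drawn up by gene symbol, and a member was used where a probe set carried its symbol and no other, with the probe set of the highest mean taken where several did. By this rule 44 of the 49 genes were measured, of 19937 genes in the table. Isg15, Gbp2, Gbp6 and Igtp lay on probe sets that carry several symbols, and no probe set was named for Ifi44. The measured members were 5 regulators, 4 sensors of foreign nucleic acid, 18 antiviral effectors with the Isg15 system, 4 interferon-inducible GTPases, 8 genes of class I antigen processing and 5 genes of class II antigen presentation.

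The series held 35 samples on 1-colour Affymetrix arrays. The parous animals were mated when 42 days old and went through pregnancy, 21 days of lactation and 40 days of involution, in which the gland regresses. Nulliparous mice were virgins of the same age. The strain is not given in the sources used here, and no genetic change or drug is stated for either group. For each sample the number 4 mammary glands of 5 animals were pooled, which makes the pool the replicate and hides differences between single animals.

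Cells had been sorted by surface proteins into 6 subpopulations. These were basal CD49f-high cells (CD24+Low Sca1-), basal CD49f-low cells (CD24+Low Sca1-), luminal Sca1-positive cells (CD24+High), luminal Sca1-negative cells (CD24+High), stromal cells and total epithelial cells. Every group held 3 samples except parous basal CD49f-high, which held 2 because per the labels 1 array had not hybridised well. The basal CD49f-high samples came from 2000 cells each and all others from 10000 cells, and replicates correlated at 0.963 to 0.978 with 2000 cells and at 0.977 to 0.991 with 10000 cells. All values below are log2 expression, so a difference of 1 is a doubling on the array's scale. A gene was called where its adjusted p was under 0.05 over all 19937 genes in a limma fit.

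The sorted cells carried the markers of their labels. Means over 8 fibroblast markers were 10.24 to 10.76 log2 in stromal samples and at most 7.58 in any other sample. Means over 10 basal and myoepithelial markers were 10.18 to 10.94 log2 in basal samples and 6.12 to 7.56 in luminal samples. Pan-luminal marker means were 10.27 to 10.71 log2 in luminal samples and 8.03 to 9.01 log2 in basal samples. Array values have no true zero, so the absence of another cell type cannot be read from a low value. Stromal samples also held endothelial transcripts, with 7 of 8 endothelial markers higher than in total epithelial samples. The 6 pan-leukocyte markers had sample means of 4.87 to 6.09 log2 over all 35 samples. Nulliparous number 1 had the highest pan-leukocyte mean of its group in 6 of 6 subpopulations.

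Interferons signal from cell to cell. Type I interferons act through a complex that holds Stat2 and Irf9 and binds the interferon-stimulated response element (ISRE), while interferon gamma acts on genes with a gamma-activated sequence (GAS), Irf1 among them. Irf1, Nlrc5 and Ciita in turn drive the antigen presentation genes: the immunoproteasome subunits Psmb8 and Psmb9 cut proteins into peptides, the Tap1-Tap2 pump carries these to class I molecules with B2m, and Cd74 guides class II molecules to the peptides they display. In the mouse, Ly6a, which encodes the Sca1 protein used in this sort, is itself inducible by interferon; it was not analysed here.

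Promoter sequences are shown for members whose values carry the comparisons below and whose windows held a motif of the pathway. They were taken from RefSeq on GRCm38.p6, as windows of 250 bases before to 50 bases after the gene's start, and 35 of the 49 genes had one. Capitals mark a match to the ISRE core GAAANNGAA, to the GAS letters TTCNNNGAA or to the Y box core CTGATTGG of class II promoters, each searched on both strands, and matches that overlap run together. Ifit3, an antiviral effector, held 3 ISRE matches (chr19:34583344-34583465, plus strand), which begin at positions -155, -121 and -102 from the gene's start. Gbp3 (chr3:142559970-142560044, plus strand) and Irgm1 (chr11:48871406-48871480, minus strand), both interferon-inducible GTPases, each held 2 overlapping ISRE matches. Irf1 held a GAS match (chr11:53769894-53769962, plus strand). Psmb9 (chr17:34187304-34187371, minus strand) and the class II alpha chain H2-Aa (chr17:34287837-34287904, minus strand) each held a Y box match. All 6 are written 5′ to 3′ on the strand of the gene.
Ifit3: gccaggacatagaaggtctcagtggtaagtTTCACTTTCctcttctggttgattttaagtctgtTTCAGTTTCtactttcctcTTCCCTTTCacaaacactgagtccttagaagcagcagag
Gbp3: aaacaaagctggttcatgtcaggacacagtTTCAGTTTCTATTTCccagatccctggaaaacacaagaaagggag
Irgm1: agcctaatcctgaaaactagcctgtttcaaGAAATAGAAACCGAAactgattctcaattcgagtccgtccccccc
Irf1: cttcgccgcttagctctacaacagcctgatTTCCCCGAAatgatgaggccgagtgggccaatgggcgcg
Psmb9: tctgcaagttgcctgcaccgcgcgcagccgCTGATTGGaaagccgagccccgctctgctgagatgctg
H2-Aa: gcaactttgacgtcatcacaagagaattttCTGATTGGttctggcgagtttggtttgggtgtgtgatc

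Across the members the ISRE core was found in 18 of 35 genes with a window (51.4%), against 9.8% of all 27025 genes with one. The GAS letters were found in 9 of the 35 members (25.7%), against 9.6% of all genes. The Y box core was found in 5 members (14.3%), against 4.7% of all genes, with the same letters counted for both Tap1 and Psmb9. The ISRE core lay in 5 of 5 GTPase genes, 9 of 15 effectors and 2 of 2 sensors, but in 1 of 6 class I genes and 0 of 2 class II genes. Both class II genes with a window, H2-Aa and H2-Eb1, held the Y box core. A match describes letters in the window and is no evidence of binding.

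Most members differed between subpopulations. The level differed among the 6 subpopulations for 32 of the 44 members (moderated F test in limma), against 52.7% of all genes. The highest mean lay in stromal cells for 21 members, in luminal Sca1-positive cells for 12 and in basal CD49f-low cells for 5. It lay in basal CD49f-high cells for 3, in luminal Sca1-negative cells for 2 and in total epithelial cells for 1. These counts take in members that were not called. The share of all genes with their highest mean in each subpopulation was not determined. The 12 members not called included the regulators Irf7, Irf8 and Irf9, the class I activator Nlrc5 and the class II activator Ciita. Irf7, which amplifies the type I response, was at 5.28 to 6.0 log2 in basal samples, 5.27 to 6.22 log2 in luminal samples, 5.48 to 6.21 log2 in stromal samples and 5.69 to 6.19 log2 in total epithelial samples. These ranges overlapped throughout. The range of the 6 means on the log2 scale was 0.35 for Irf7, 0.26 for Nlrc5 and 0.23 for Ciita. Nlrc5 has 19 probe sets, which did not all give one picture: the one used differed by 0.11 log2 between basal and luminal cells and another by 0.61 log2, and the parity difference in basal CD49f-high cells was -0.10 log2 in the one used and -1.19 log2 in the other. Mx1 and Oas3, antiviral effectors, ranged over 0.14 and 0.17. Both had low levels on the array, at 3.19 to 3.64 log2 for Mx1 and 5.24 to 5.67 log2 for Oas3 over all 35 samples, where small changes are hard to see. These and Dhx58, Ifit1, Oas2, Gbp5 and Ciita, 7 members in all, were above 6 log2 in fewer than 3 samples.

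**Figure D1:**
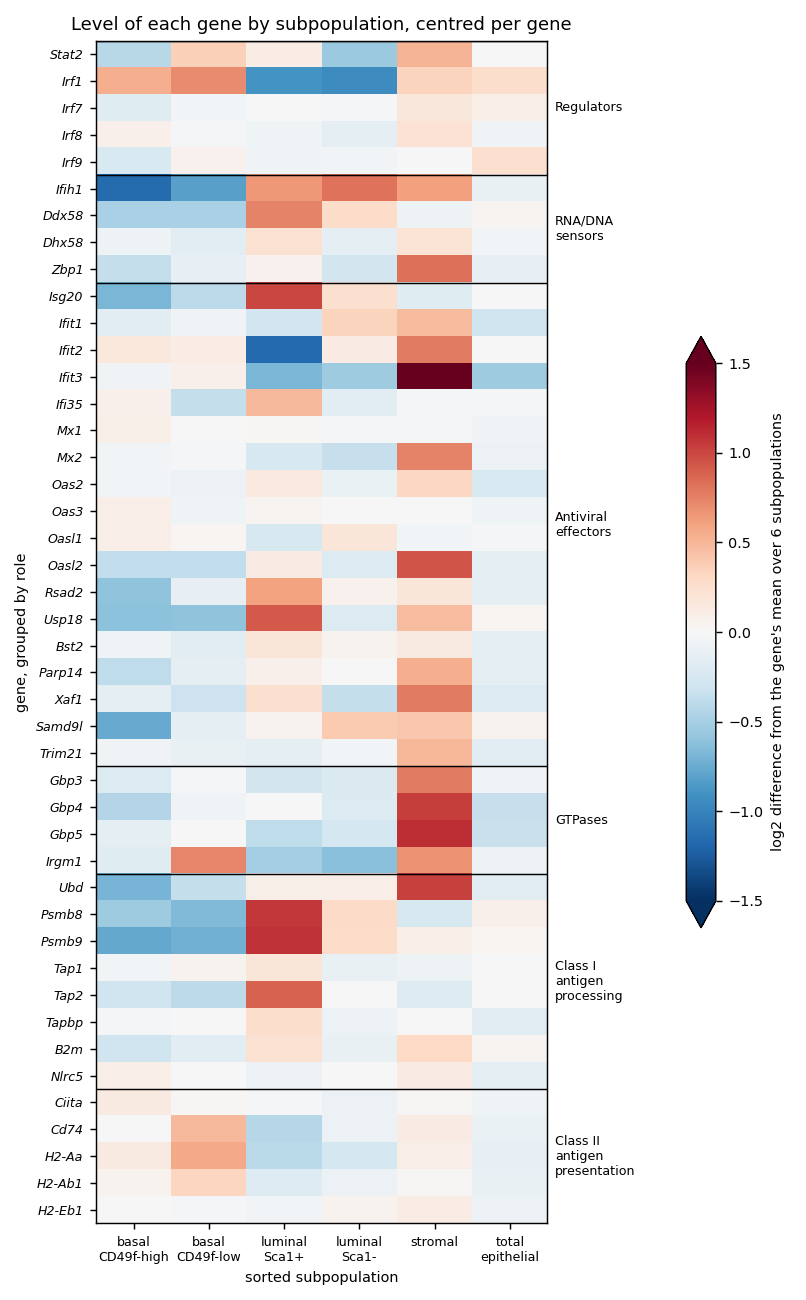
Mean log2 level of each of the 44 genes in each of the 6 sorted subpopulations, as the difference from that gene's own mean over the 6 (red higher, blue lower). The stromal column is the highest for 10 of 18 effectors and 3 of 4 GTPases. The luminal Sca1+ column is the highest for 5 of 8 class I genes and the basal CD49f-low column for 3 of 5 class II genes. These counts take in genes that were not called.

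Stromal cells stood above total epithelial cells for many effectors and for all measured GTPases. Of the 44 members, 21 were higher in stromal cells (47.7%), against 13.6% of all genes, and 1 was lower (2.27%), against 15.6% of all genes. The median difference was 0.27 log2 over the members and 0.02 log2 over all genes. The GTPases, a family with roles in defence against microbes inside cells, were higher in 4 of 4 cases.

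Gbp5, which did not pass the filter on dim genes, had a lowest, median and highest level of 4.48, 5.37 and 5.72 log2 in 6 stromal samples, against 3.70, 3.78 and 4.02 log2 in 6 total epithelial samples. No stromal sample overlapped an epithelial one, and the difference was 1.43 log2 (SE 0.17, adjusted p = 6.8e-08). Gbp4 reached 5.43, 6.06 and 8.03 log2 in stromal samples, against 4.69, 4.93 and 5.39 log2 in total epithelial samples, a difference of 1.39 log2 (SE 0.20, adjusted p = 2.6e-06). Gbp3 differed by 0.84 log2 (SE 0.14, adjusted p = 2.3e-05) and Irgm1 by 0.74 log2 (SE 0.24, adjusted p = 0.0193).

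Effectors were higher in stroma for 11 of 18 and lower for none. Ifit3 had the largest difference of the measured members, at 2.24 log2 (SE 0.42, adjusted p = 9.1e-05). Its stromal values were spread widely, at 6.77, 6.55 and 4.79 log2 in parous samples and 7.27, 7.67 and 4.88 log2 in nulliparous samples, against 3.62 to 4.65 log2 over all total epithelial samples. The lowest stromal value was therefore close to the highest epithelial one. In each history the lowest stromal value was that of number 3. Oasl2, an oligoadenylate synthetase-like protein, was tighter, at 7.06, 7.29 and 7.58 log2 in stromal samples, against 5.94, 6.21 and 6.43 log2 in total epithelial samples, and differed by 1.08 log2 (SE 0.11, adjusted p = 2.6e-09). The ubiquitin ligase Trim21, a cytosolic antibody receptor, had 7.02, 7.14 and 7.36 log2 in stromal samples, against 6.33, 6.47 and 6.66 log2 in total epithelial samples, and differed by 0.67 log2 (SE 0.11, adjusted p = 1.1e-05).

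Among sensors, Zbp1, which senses left-handed nucleic acid, was higher in stromal cells by 0.95 log2 (SE 0.12, adjusted p = 1.0e-07), with 6.93 to 7.62 log2 in stromal samples and 5.95 to 6.48 log2 in total epithelial samples. The RNA sensor Ifih1, at 7.38, 7.82 and 8.23 log2 in stromal samples, against 6.21, 7.21 and 7.35 log2 in total epithelial samples without overlap, was higher by 0.73 log2 (SE 0.23, adjusted p = 0.0176), a call lost without total epithelial parous number 3 or without stromal parous number 1. Its stromal mean of 7.79 log2 was not above the luminal means, at 7.99 log2 in Sca1-negative and 7.82 log2 in Sca1-positive cells. Stat2 was the regulator with the clearest difference, at 0.52 log2 (SE 0.16, adjusted p = 0.0127), and its 6 stromal samples at 7.53 to 7.69 log2 all lay above the 6 epithelial ones at 6.43 to 7.43 log2. Its call was lost without total epithelial nulliparous number 3. Irf8, an interferon regulatory factor best known from immune cells, had 5.79, 6.15 and 6.32 log2 in stromal samples, against 5.67, 5.80 and 6.12 log2 in total epithelial samples, with ranges that overlapped. It differed by 0.27 log2 (SE 0.10, adjusted p = 0.0446), and that call held in 26 of 35 fits that each left out 1 sample but not with quantile normalization or without nulliparous number 1 of every subpopulation.

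Class I processing did not share this direction as a group. B2m had 12.02, 12.12 and 12.24 log2 in stromal samples, against 11.78, 11.86 and 11.94 log2 in total epithelial samples, without overlap, and was higher by 0.27 log2 (SE 0.07, adjusted p = 0.00255). Ubd had 4.65, 6.62 and 9.94 log2 in stromal samples, against 4.74, 5.68 and 6.17 log2 in total epithelial samples, with wide overlap. Its 3 nulliparous stromal samples lay above all epithelial samples and its 3 parous ones did not. Ubd, a ubiquitin-like protein that marks proteins for the proteasome, was higher by 1.19 log2 (SE 0.33, adjusted p = 0.0068), a call lost without nulliparous number 1 of every subpopulation (adjusted p = 0.0533 in limma). Psmb8 was lower by 0.32 log2 (estimate -0.32, SE 0.11, adjusted p = 0.0304). None of the 5 class II genes passed the test, with a lowest adjusted p of 0.0953 and 1 of 5 at an unadjusted p under 0.05. Beside these results, 8 of 8 fibroblast, 7 of 8 endothelial, 1 of 11 macrophage and 0 of 6 pan-leukocyte markers were higher in stromal cells, and their part in the results was not tested. In bulk samples such as these, fewer cells of a type and less RNA per cell cannot be told apart.

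Other genes of the pathway followed a list drawn up with earlier results of these data known. Of 25 other interferon-stimulated genes 17 were higher in stromal cells and 0 lower, with Sp100, a nuclear body protein, at 3.26 log2 (SE 0.22, adjusted p = 3.9e-13), Trim30a at 2.78 log2 (SE 0.23, adjusted p = 5.4e-11) and the chemokine Cxcl10 at 2.05 log2 (SE 0.14, adjusted p = 1.6e-12). Of 20 genes of interferons, receptors and signalling 7 were higher and 4 lower. Jak1, the kinase shared by the interferon receptors, was higher by 0.67 log2 (SE 0.09, adjusted p = 2.9e-07), while the feedback inhibitor Socs3 was lower (estimate -0.87 log2, SE 0.14, adjusted p = 1.5e-05). Of 11 other sensors and adaptors 4 were higher and 0 lower, of 11 other class II genes 3 were higher and 0 lower, and of 9 other class I genes 2 were higher and 1 lower.

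**Figure D2:**
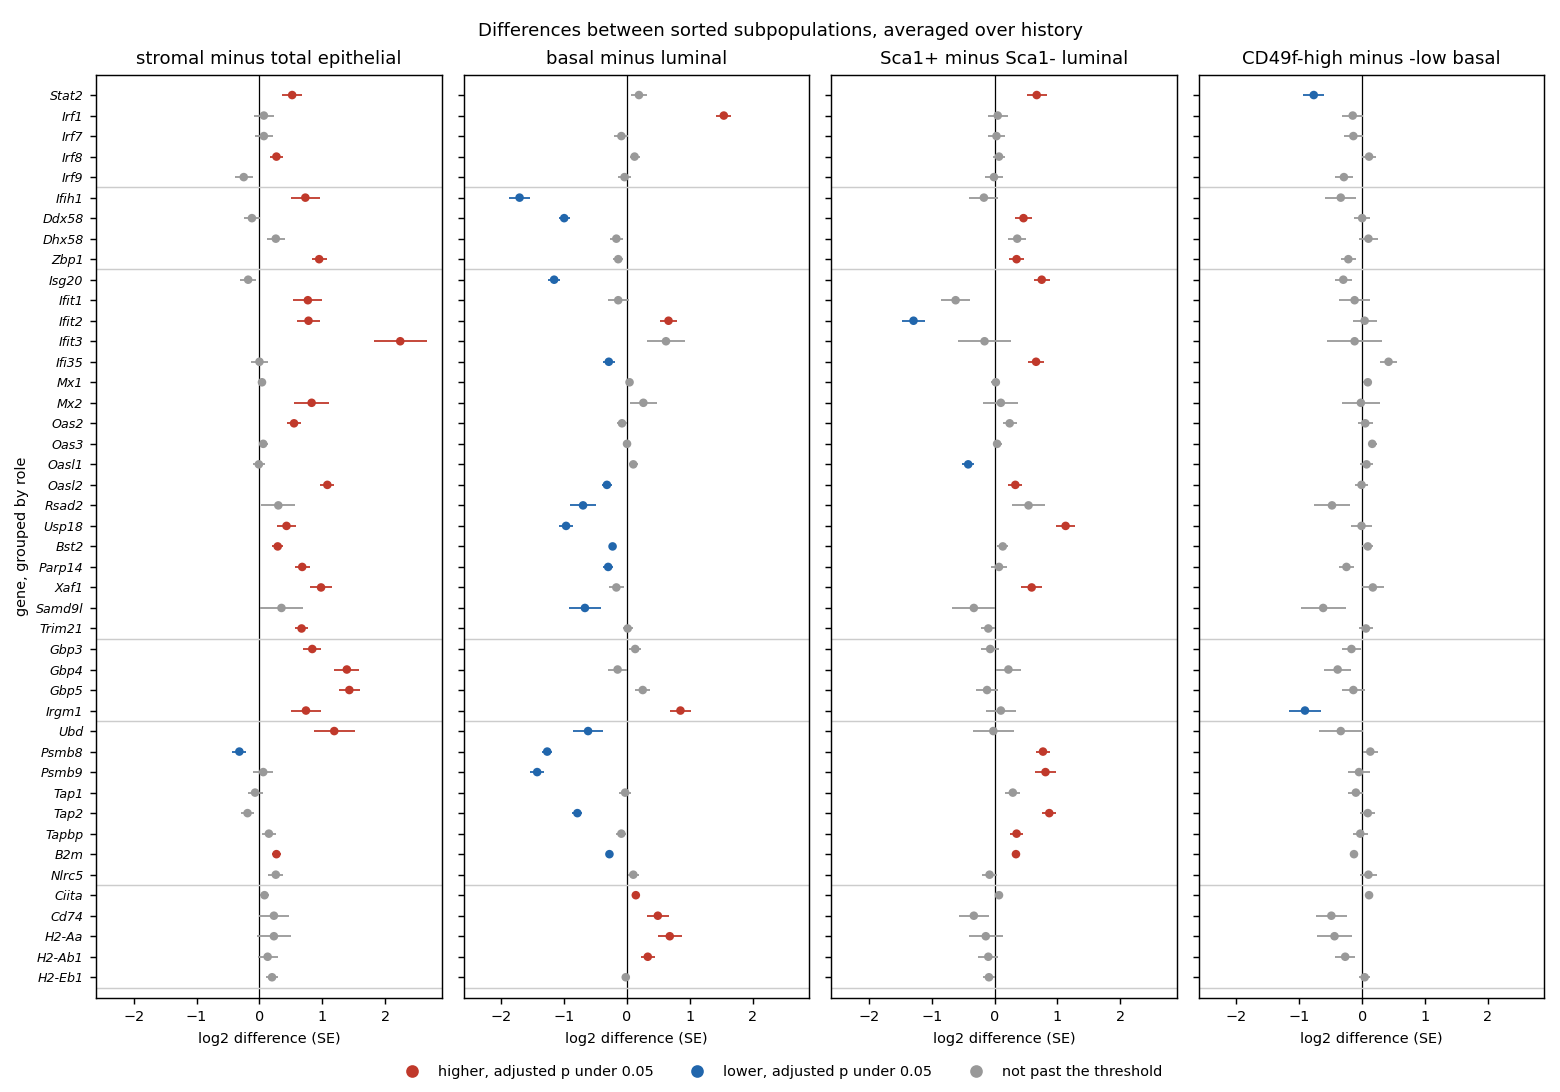
Estimated log2 differences between sorted subpopulations for the 44 genes, with SE bars, in 4 comparisons averaged over parous and nulliparous samples; colour marks genes past the threshold. Most stromal minus epithelial points lie to the right of 0, 5 of 8 class I genes are past the threshold to the left of 0 in basal minus luminal and 5 of 8 to the right in Sca1+ minus Sca1-, and few genes differ in the last panel.

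Basal and luminal cells differed in opposite directions for different roles. Of the 44 members 7 were higher in basal cells (15.9%), against 15.5% of all genes, and 15 were lower (34.1%), against 19.5% of all genes. The median difference was -0.08 log2 over the members and 0 over all genes. Class I processing was lower in basal cells for 5 of 8 genes and higher for none, effectors lower for 8 of 18 and higher for 1, and sensors lower for 2 of 4. Class II genes were higher for 4 of 5.

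Psmb8, an immunoproteasome subunit, had a lowest, median and highest level of 6.89, 7.45 and 7.75 log2 in 11 basal samples, against 8.21, 8.68 and 9.35 log2 in 12 luminal samples. The groups did not overlap, and Psmb8 was lower in basal cells by an estimate of -1.27 log2 (SE 0.08, adjusted p = 1.6e-13). Its partner subunit Psmb9 had 7.09, 7.33 and 7.97 log2 in basal samples, against 8.16, 8.92 and 9.91 log2 in luminal samples, again without overlap (estimate -1.43 log2, SE 0.11, adjusted p = 1.9e-11). Tap2, the peptide pump subunit, was lower as well (estimate -0.79 log2, SE 0.08, adjusted p = 4.3e-09). Tap1, which pairs with Tap2, did not pass the test among the 6 subpopulations, with means between 6.09 and 6.38 log2 (range 0.29, adjusted p = 0.243). Tap1 and Psmb9 start 226 bases apart on opposite strands in the RefSeq annotation, so that their promoter windows share the Y box letters printed above. The means of Psmb9 ranged over 1.86 log2 (moderated F test, adjusted p = 2.4e-10). They lay at 7.47 to 9.33 log2, above those of Tap1, and the part of this level in the contrast between the 2 genes was not tested.

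Of the 4 sensors 2 were lower in basal cells, and Dhx58 (-0.17 log2, SE 0.10) and Zbp1 did not pass the test. Ifih1 had 5.31, 6.02 and 7.17 log2 in basal samples, against 7.41, 7.98 and 8.43 log2 in luminal samples, without overlap, and was lower in basal cells by an estimate of -1.71 log2 (SE 0.17, adjusted p = 1.7e-09). Ddx58, also known as RIG-I, had 6.86, 7.29 and 7.86 log2 in basal samples, against 7.96, 8.27 and 8.89 log2 in luminal samples, without overlap (estimate -1.0 log2, SE 0.09, adjusted p = 3.8e-10). The exonuclease Isg20 had 6.08, 6.74 and 7.08 log2 in basal samples, against 7.29, 7.85 and 8.35 log2 in luminal samples (estimate -1.16 log2, SE 0.09, adjusted p = 2.1e-11). Usp18, which removes Isg15 from proteins and restrains the interferon receptor, had 5.36, 5.54 and 5.86 log2 in basal samples, against 5.68, 6.58 and 7.95 log2 in luminal samples, with a small overlap, and differed by an estimate of -0.97 log2 (SE 0.11, adjusted p = 1.8e-08).

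Irf1 went against them. It had 7.63, 8.99 and 9.43 log2 in basal samples, against 6.81, 7.23 and 7.65 log2 in luminal samples, so that only the lowest basal sample lay within the luminal range. The difference was 1.54 log2 (SE 0.12, adjusted p = 6.8e-12), and the second probe set of Irf1 differed by 0.86 log2. The GTPase Irgm1 had 5.47, 6.91 and 7.60 log2 in basal samples, against 5.24, 5.80 and 6.41 log2 in luminal samples. It was higher by 0.85 log2 (SE 0.17, adjusted p = 2.6e-04) and the effector Ifit2 by 0.66 log2 (SE 0.13, adjusted p = 2.0e-04). Irf9, the DNA-binding partner of Stat2, had 6.27, 6.60 and 7.46 log2 in basal samples, against 6.10, 6.83 and 7.02 log2 in luminal samples, and Nlrc5 had 8.81, 9.18 and 9.67 log2 in basal samples, against 8.90, 9.16 and 9.36 log2 in luminal samples, both with overlap. The regulators Stat2, Irf7, Irf8 and Irf9 did not pass the test, with differences of 0.19, -0.09, 0.12 and -0.04 log2.

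H2-Aa had 5.81, 7.04 and 8.0 log2 in basal samples, against 5.39, 6.23 and 6.79 log2 in luminal samples. The ranges overlapped, and H2-Aa was higher in basal cells by 0.68 log2 (SE 0.19, adjusted p = 0.00625). Its chaperone Cd74 was higher by 0.49 log2 (SE 0.17, adjusted p = 0.026), the beta chain H2-Ab1 by 0.33 log2 (SE 0.11, adjusted p = 0.0238) and Ciita by 0.14 log2 (SE 0.05, adjusted p = 0.0337). H2-Ab1 had 6.17, 6.51 and 7.57 log2 in basal samples, against 6.14, 6.30 and 6.48 log2 in luminal samples. Ciita had 5.32, 5.61 and 5.76 log2 in basal samples, against 5.31, 5.49 and 5.73 log2 in luminal samples. Both genes' ranges overlapped. Ciita did not pass the filter on dim genes, and small differences at its level are hard to see. The H2-Ab1 call was lost without basal CD49f-low nulliparous number 1 and without basal CD49f-high parous number 2, as well as under array weights and without nulliparous number 1 of every subpopulation. These genes are strongly expressed by antigen-presenting cells, and markers of such cells differed in the same direction: 4 of 11 macrophage and 2 of 6 pan-leukocyte markers were higher in basal cells and 0 lower, against 0 of 8 dendritic cell markers. The macrophage genes C1qb and Cd68 differed by 0.44 log2 (SE 0.11, adjusted p = 0.00149) and 0.55 log2 (SE 0.13, adjusted p = 0.00163). Pan-leukocyte sample means were 5.04 to 6.09 log2 in basal samples and 4.87 to 5.61 log2 in luminal samples. Basal CD49f-low nulliparous number 1 had the highest value of the series for the pan-leukocyte mean (6.09), Cd74 (7.49) and H2-Aa (8.0). In 9 of the 12 groups the sample with the highest pan-leukocyte mean was also the one with the highest class II mean, against 8 of 12 for the regulators and for the effectors, 6 of 12 for the sensors, 5 of 12 for class I processing and 4 of 12 for the GTPases. The part of these markers in the class II result was not tested.

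**Figure D3:**
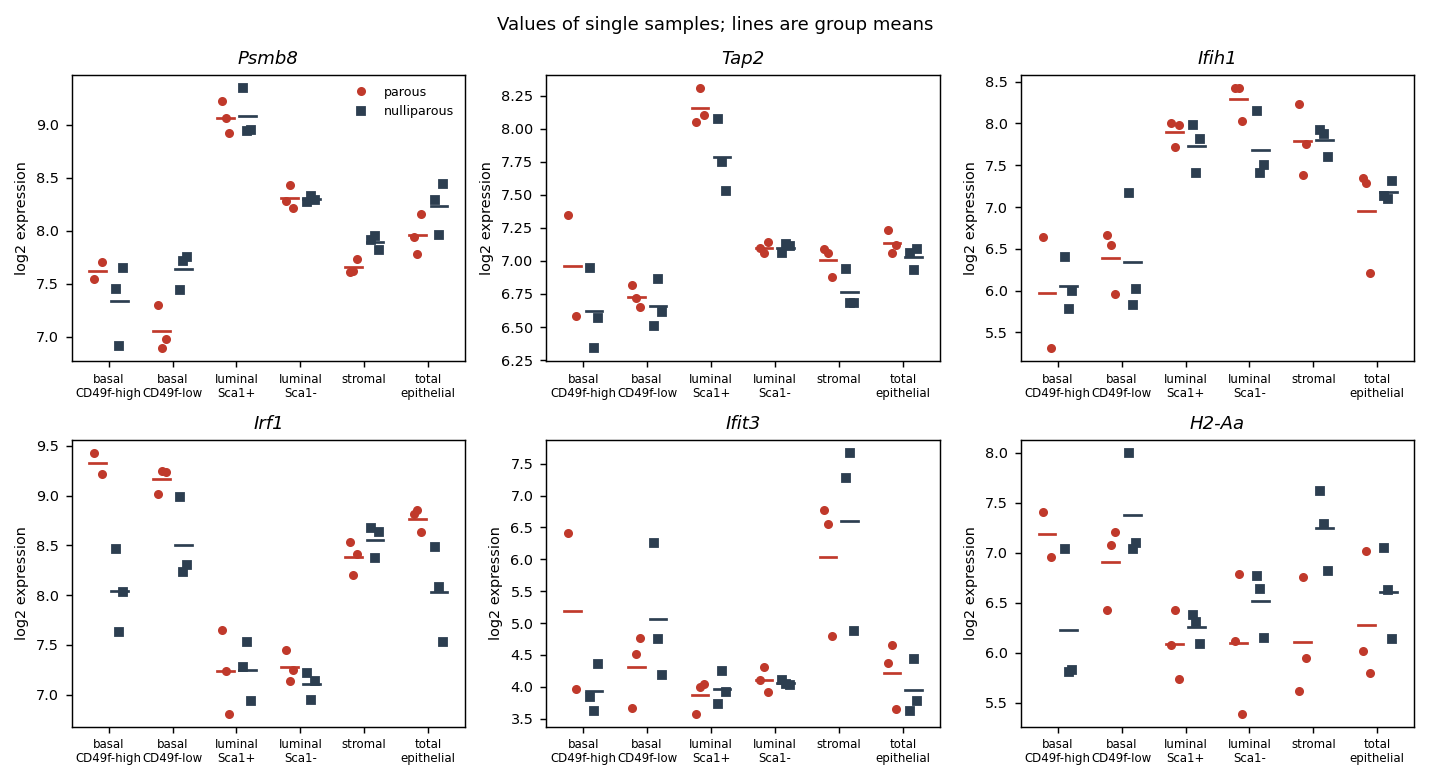
Log2 expression of 6 genes in every sample of the 6 subpopulations, with parous samples as red circles and nulliparous samples as dark squares, and group means as lines. Psmb8, Tap2 and Ifih1 are low in both basal subpopulations, and Irf1 is high there. Parous Irf1 values lie above nulliparous ones in both basal subpopulations, past the threshold only in CD49f-high cells. Ifit3 is high and scattered in stroma and in single basal samples, and H2-Aa varies as much between samples as between subpopulations.

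Other pathway genes differed between basal and luminal cells in both directions. Of 25 other interferon-stimulated genes 4 were higher in basal cells and 12 lower. The membrane proteins Ifitm3 and Ifitm2, which block virus entry, were higher by 0.92 log2 (SE 0.04, adjusted p = 1.7e-18) and 0.84 log2 (SE 0.07, adjusted p = 6.1e-11), while Parp9 was lower (estimate -0.88 log2, SE 0.08, adjusted p = 4.9e-10). Of 20 signalling genes 3 were higher and 5 lower, with Socs3 higher by 1.82 log2 (SE 0.10, adjusted p = 1.0e-14) and the receptor kinase Jak2 lower (estimate -1.12 log2, SE 0.12, adjusted p = 1.2e-08). Of 9 other class I genes 0 were higher and 4 lower, among them the proteasome activator Psme2 (estimate -0.91 log2, SE 0.12, adjusted p = 6.4e-07). Of 11 other sensors and adaptors 4 were higher and 3 lower, with the endosomal RNA receptor Tlr3 lower (estimate -1.35 log2, SE 0.10, adjusted p = 2.4e-12), and of 11 other class II genes 2 were higher and 2 lower.

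Within the luminal cells, 5 of 8 class I processing genes were higher in Sca1-positive cells. Of the 44 members 13 were higher in Sca1-positive than in Sca1-negative cells, against 9.00% of all genes, and 2 were lower, against 7.11% of all genes. The 5 class I genes called were Tap2, Psmb9, Psmb8, Tapbp and B2m, while Tap1 (0.29 log2), Ubd (-0.02 log2) and Nlrc5 (-0.08 log2) did not pass the test. No GTPase and no class II gene was called, with 0 of 4 and 0 of 5.

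Tap2 had 7.53, 8.06 and 8.31 log2 as lowest, median and highest level in 6 Sca1-positive samples, against 7.06, 7.10 and 7.14 log2 in 6 Sca1-negative samples. The groups did not overlap, and the difference was 0.87 log2 (SE 0.11, adjusted p = 9.7e-07). Psmb8 had 8.92, 9.0 and 9.35 log2 in Sca1-positive samples, against 8.21, 8.28 and 8.43 log2 in Sca1-negative samples, also without overlap (0.77 log2, SE 0.11, adjusted p = 6.3e-06). Usp18 had 6.86, 6.95 and 7.95 log2 in Sca1-positive samples, against 5.68, 5.99 and 6.29 log2 in Sca1-negative samples (1.13 log2, SE 0.15, adjusted p = 1.3e-06). Stat2 had 6.97, 7.25 and 7.42 log2 in Sca1-positive samples, against 5.99, 6.57 and 6.98 log2 in Sca1-negative samples, with ranges that just touched (0.67 log2, SE 0.16, adjusted p = 0.00297). Ddx58 had 8.27, 8.56 and 8.89 log2 in Sca1-positive samples, against 7.96, 8.15 and 8.27 log2 in Sca1-negative samples, with ranges that met, and Zbp1 had 6.27, 6.48 and 6.64 log2 in Sca1-positive samples, against 5.86, 6.13 and 6.40 log2 in Sca1-negative samples, with overlap. Ddx58 differed by 0.46 log2 (SE 0.13, adjusted p = 0.00912) and Zbp1 by 0.35 log2 (SE 0.12, adjusted p = 0.0362), and the Zbp1 call held in 28 of 35 fits that each left out 1 sample. Both calls were lost without nulliparous number 1 of every subpopulation.

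Ifit2 ran the other way, at 4.30, 4.61 and 4.95 log2 in Sca1-positive samples, against 5.24, 5.77 and 6.92 log2 in Sca1-negative samples. The groups did not overlap (estimate -1.29 log2, SE 0.18, adjusted p = 4.2e-06). Oasl1, the other member that was lower, differed by an estimate of -0.42 log2 (SE 0.10, adjusted p = 0.00382). Of the other pathway lists, 3 of 25 interferon-stimulated genes were higher and 0 lower, led by Ifitm3 (0.62 log2, SE 0.05, adjusted p = 1.2e-10), and 2 of 9 class I genes were higher, H2-M3 and Psme2. Of 20 signalling genes 2 were higher, Ptpn6 and Jak2, and 3 lower, among them Ifngr1 (estimate -0.42 log2, SE 0.12, adjusted p = 0.0172). Of 11 sensors and adaptors 2 were higher and 0 lower, and of 11 other class II genes 1 was higher and 1 lower. Pan-leukocyte markers were called in 0 of 6 cases in this comparison and macrophage markers in 0 of 11, while 7 of 10 basal and 4 of 4 luminal progenitor markers were lower in Sca1-positive cells. Means over the hormone-sensing luminal markers were 9.16 to 9.60 log2 in Sca1-positive samples and 7.36 to 8.41 log2 in Sca1-negative samples. The part of these markers in the results was not tested.

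The 2 basal subpopulations were closer to each other. Of the 44 members 0 were higher in CD49f-high than in CD49f-low cells, against 1.05% of all genes, and 2 were lower, against 2.48% of all genes. Stat2 was at 6.40 to 7.33 log2 in 5 CD49f-high samples and at 7.07 to 7.87 log2 in 6 CD49f-low samples, and only CD49f-high nulliparous number 1 lay within the CD49f-low range (estimate -0.77 log2, SE 0.17, adjusted p = 0.0102). Irgm1 was at 5.47 to 6.72 log2 in CD49f-high samples and at 6.91 to 7.60 log2 in CD49f-low samples without overlap (estimate -0.91 log2, SE 0.25, adjusted p = 0.0421), a call that held in 28 of 35 fits without 1 sample. At an unadjusted p under 0.05 there were 6 of 44 members (13.6%), against 18.3% of all genes. Array weights, quantile normalization and leaving out nulliparous number 1 of every subpopulation each ended the Irgm1 call. Of the other pathway lists, 1 of 20 signalling genes, 2 of 25 interferon-stimulated genes and 1 of 11 sensors and adaptors were lower in CD49f-high cells, and 0 were higher on any list.

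Few members were called between parous and nulliparous samples. Shares over all genes were also small in most subpopulations, so the absence of a call there does not set the members apart. No member was called between parous and nulliparous samples in luminal Sca1-negative cells, against 1.00% of all genes, in luminal Sca1-positive cells, against 0.607%, in basal CD49f-low cells, against 0.968%, or in total epithelial cells, against 0.446%. At an unadjusted p under 0.05 there were 3, 1, 6 and 2 members in these subpopulations, in that order, or 6.82%, 2.27%, 13.6% and 4.55% of the members, where all genes gave 11.4%, 6.63%, 10.5% and 7.26%. Over the 6 subpopulations the parous mean was higher in 6 of 6 for 1 member, Tap2. It was lower in 6 of 6 for 2 members, Oasl2 and Tap1, and mixed for the other 41. Any difference was counted, however small: Tap2 in luminal Sca1-negative cells had 7.1, 7.06 and 7.14 log2 in parous and 7.06, 7.13 and 7.11 log2 in nulliparous samples. Tap1 and Tap2 were called in no parity comparison. The share of all genes with 1 direction in 6 of 6 was not determined.

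**Figure D4:**
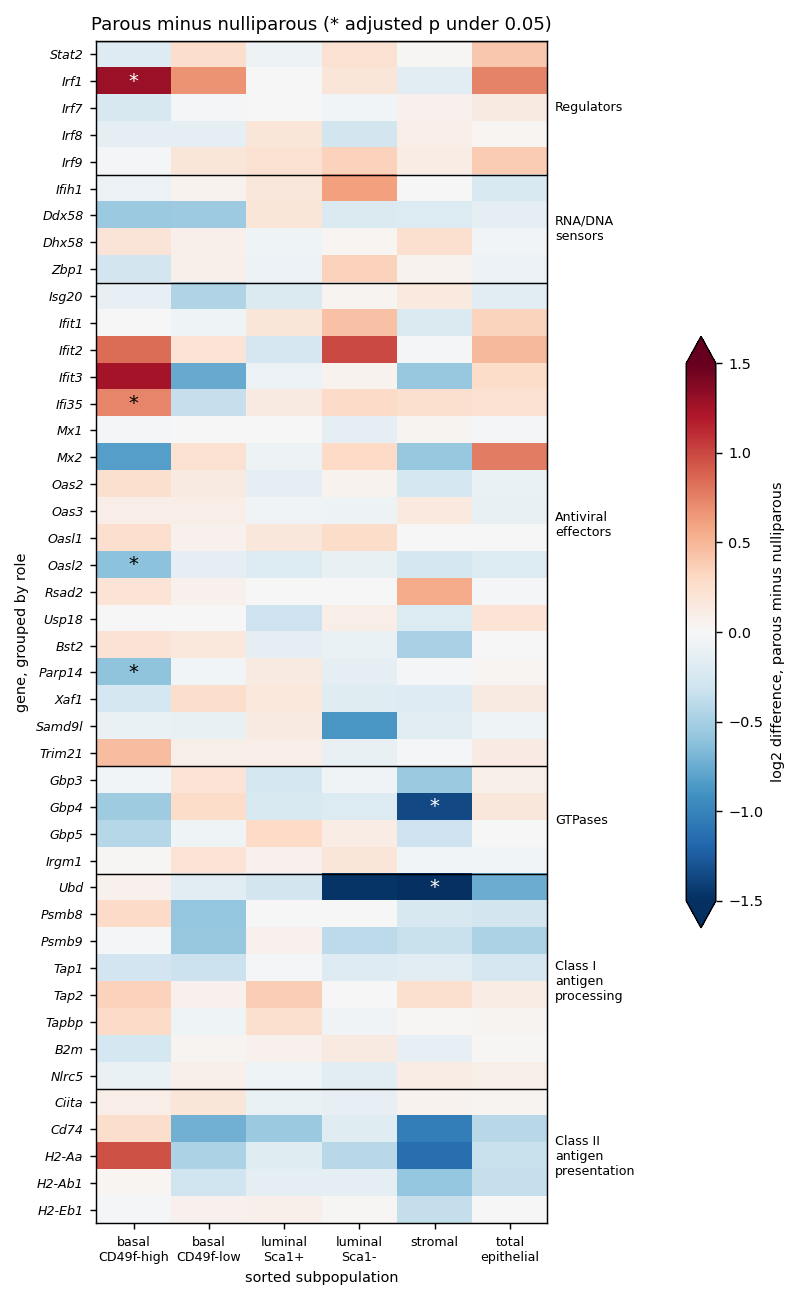
Estimated log2 difference between parous and nulliparous samples for the 44 genes in each of the 6 subpopulations (red higher in parous, blue lower), with a star where the adjusted p is under 0.05. Stars stand on Irf1, Ifi35, Oasl2 and Parp14 in basal CD49f-high cells and on Ubd and Gbp4 in stromal cells; Ubd reaches -3.33 in stroma, beyond the colour scale.

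In stromal cells 2 members were lower in parous samples and 0 higher, where 0.492% of all genes were lower and 0.105% higher. Ubd, which is induced by interferon gamma and tumour necrosis factor, had 4.69, 6.03 and 4.65 log2 in parous stroma, against 9.94, 8.21 and 7.21 log2 in nulliparous stroma. All 3 parous samples lay below all 3 nulliparous ones, and the difference was -3.33 log2 (SE 0.47, adjusted p = 1.4e-04). The call held in 35 of 35 fits that each left out 1 sample, and was lost where stromal samples were fitted alone. Gbp4 had 5.69, 5.43 and 6.02 log2 in parous stroma, against 8.03, 6.09 and 7.05 log2 in nulliparous stroma. Its groups were apart by a narrow margin and differed by -1.35 log2 (SE 0.29, adjusted p = 0.0154). The Gbp4 call was lost without stromal parous number 1, without parous number 2 or without nulliparous number 1.

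The other GTPases did not pass the test in stroma, with differences of -0.56 log2 for Gbp3, -0.31 log2 for Gbp5 and -0.04 log2 for Irgm1. Neither did class II, although 4 of 5 genes had an unadjusted p under 0.05, against 9.16% of all genes (lowest adjusted p = 0.215 in limma). Cd74 had 5.17, 6.0 and 4.82 log2 in parous stroma, against 6.95, 6.19 and 5.99 log2 in nulliparous stroma, and H2-Aa had 5.62, 6.76 and 5.95 log2 in parous stroma, against 7.62, 7.29 and 6.82 log2 in nulliparous stroma. The differences were -1.04 log2 (SE 0.34, adjusted p = 0.215) and -1.13 log2 (SE 0.38, adjusted p = 0.247), while Ciita differed by 0.05 log2 (SE 0.10).

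Of 25 other interferon-stimulated genes 2 were lower in parous stroma and 0 higher. The T cell chemokine Cxcl9 had 6.63, 6.82 and 7.27 log2 in parous stroma, against 9.34, 8.52 and 9.03 log2 in nulliparous stroma, a difference of -2.06 log2 (SE 0.26, adjusted p = 2.2e-05). Its relative Cxcl10 had 8.26, 8.02 and 7.94 log2 in parous stroma, against 9.01, 9.08 and 9.28 log2 in nulliparous stroma, a difference of -1.05 log2 (SE 0.20, adjusted p = 0.0069). Neither gene's groups overlapped. Sting1, the adaptor of the DNA sensor cGAS, was lower by an estimate of -0.90 log2 (SE 0.19, adjusted p = 0.0175).

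Markers of other cell types differed beside these genes. The mean of 8 endothelial markers was 6.91 to 7.23 log2 in parous stroma and 7.48 to 8.16 log2 in nulliparous stroma, without overlap; 1 of 8, Pecam1, was called lower (estimate -1.55 log2, SE 0.36, adjusted p = 0.0329). The pan-leukocyte mean was 5.03 to 5.43 log2 in parous stroma and 5.49 to 5.83 log2 in nulliparous stroma, without overlap, and 0 of 6 markers were called. Basal keratins were also lower in parous stroma, with Krt5 at an estimate of -1.85 log2 (SE 0.18, adjusted p = 5.7e-07), and the mean of 10 basal markers was 7.68 to 7.85 log2 in parous and 8.23 to 8.28 log2 in nulliparous stroma. Of 8 fibroblast markers 1, Col3a1, was lower (estimate -0.88 log2, SE 0.15, adjusted p = 0.00201). The part of these markers in the stromal results was not tested.

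**Figure D5:**
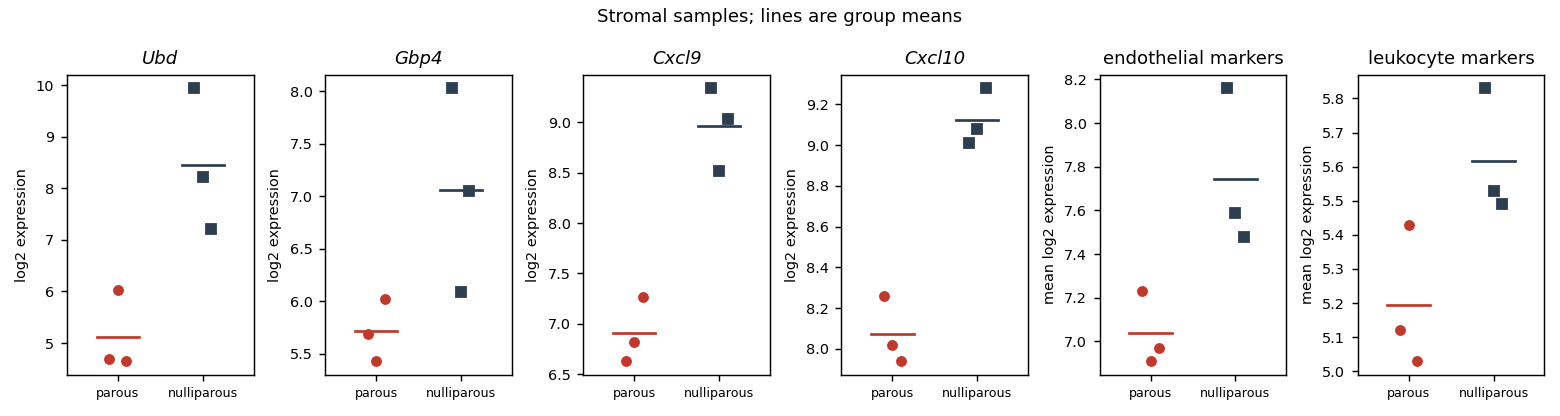
Log2 expression of Ubd, Gbp4, Cxcl9 and Cxcl10 and mean log2 expression of 8 endothelial and 6 pan-leukocyte markers in 3 parous (left) and 3 nulliparous (right) stromal samples, with group means as lines; each panel has its own axis. Every parous point lies below every nulliparous point in all 6 panels.

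The parity effect on Ubd differed among the 6 subpopulations. Its estimates were -3.33 log2 in stromal cells, -1.47 in luminal Sca1-negative cells, -0.75 in total epithelial cells, -0.28 in luminal Sca1-positive cells, -0.17 in basal CD49f-low cells and 0.06 in basal CD49f-high cells. They spanned 3.39 log2 (moderated F test, adjusted p = 0.0146), and Ubd was the 1 member called, against 2.80% of all genes. The call was lost without stromal parous number 1 or number 3. In luminal Sca1-negative cells Ubd had 5.06, 5.37 and 4.98 log2 in parous samples, against 5.90, 7.11 and 6.81 log2 in nulliparous samples, which did not overlap, although the adjusted p was 0.155. The direct test of stromal against total epithelial cells called 0 members, against 0.166% of all genes, with 6 of 44 (13.6%) at an unadjusted p under 0.05, against 5.77% of all genes, and gave -2.58 log2 for Ubd (SE 0.67, adjusted p = 0.148). Cxcl9, of the other interferon-stimulated genes, was called in that test (estimate -1.83 log2, SE 0.36, adjusted p = 0.018).

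In basal CD49f-high cells 2 members were higher in parous samples, against 4.01% of all genes, and 2 were lower, against 5.05% of all genes. At 4.55% in each direction the members' shares were near those of all genes. Irf1 had 9.43 and 9.22 log2 in parous samples, against 8.46, 7.63 and 8.03 log2 in nulliparous samples, without overlap. It was higher by 1.29 log2 (SE 0.25, adjusted p = 0.00146), its second probe set by 0.66 log2, and its call held in 35 of 35 fits without 1 sample but not where this subpopulation was fitted alone. Ifi35, an interferon-induced leucine zipper protein, had 7.46 and 7.52 log2 in parous samples, against 6.52, 7.02 and 6.74 log2 in nulliparous samples (0.73 log2, SE 0.21, adjusted p = 0.0277). Oasl2 had 5.63 and 5.72 log2 in parous samples, against 6.57, 6.32 and 5.99 log2 in nulliparous samples (estimate -0.62 log2, SE 0.17, adjusted p = 0.0206). Parp14, an ADP-ribosyltransferase, had 6.36 and 6.70 log2 in parous samples, against 7.09, 7.37 and 6.93 log2 in nulliparous samples (estimate -0.60 log2, SE 0.18, adjusted p = 0.0367).

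All 4 genes were apart between the groups, which held 2 and 3 samples. The Ifi35, Oasl2 and Parp14 calls were lost under array weights, without nulliparous number 1 of every subpopulation and where this subpopulation was fitted alone. Each was also lost without parous number 2, without at least 1 of the nulliparous samples and, for Ifi35 and Oasl2, without parous number 3. Other pathway genes are named here without counts per list, in a comparison where 4.01% of all genes were higher and 5.05% lower. Ifitm2 was higher by 0.83 log2 (SE 0.15, adjusted p = 7.5e-04) and Socs3 by 0.74 log2 (SE 0.22, adjusted p = 0.0349). The interferon gamma receptor chain Ifngr1 was also called, at 8.64 and 8.44 log2 in parous samples, against 8.0, 8.08 and 7.71 log2 in nulliparous samples. The kinase Tbk1, which acts downstream of the sensors, was lower (estimate -0.93 log2, SE 0.18, adjusted p = 9.9e-04), as was Sting1 (estimate -0.75 log2, SE 0.22, adjusted p = 0.0261). Beside these genes, 5 of 10 basal markers were higher in parous CD49f-high samples and 0 lower, and their mean was 10.78 to 10.94 log2 in parous samples and 10.18 to 10.62 log2 in nulliparous samples. Of 11 macrophage markers 1, Cd68, was higher (1.20 log2, SE 0.29, adjusted p = 0.00819), and of 8 endothelial markers 1, Emcn, was lower (estimate -2.36 log2, SE 0.74, adjusted p = 0.0409). Their part in the results was not tested.

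Irf1 passed the parity test in no single subpopulation other than basal CD49f-high cells, though its parous samples were higher in some. In basal CD49f-low cells it had 9.02, 9.25 and 9.24 log2 in parous samples, against 8.99, 8.23 and 8.30 log2 in nulliparous samples (0.67 log2, SE 0.23, adjusted p = 0.225). In total epithelial cells it had 8.82, 8.86 and 8.63 log2 in parous samples, against 8.48, 8.08 and 7.53 log2 in nulliparous samples (0.74 log2, SE 0.23, adjusted p = 0.218). The groups did not overlap in either, and neither passed the test. In luminal cells the effect was 0.18 log2 in Sca1-negative and -0.01 log2 in Sca1-positive cells, and in stromal cells it was -0.17 log2 (each SE 0.23).

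Averaged over the 4 sorted epithelial subpopulations, 2 members were higher in parous samples, against 2.72% of all genes, and 1 was lower, against 3.49%. Irf1 was higher by 0.53 log2 (SE 0.12, adjusted p = 0.00479), and the call held in 35 of 35 fits without 1 sample. Ifit2 was higher by 0.45 log2 (SE 0.13, adjusted p = 0.0393) and Oasl2 lower (estimate -0.27 log2, SE 0.08, adjusted p = 0.0393), calls that held in 19 and 20 of the 35. Both were lost with pool as a random block (a pool being the samples of one number and history), and Oasl2 also without nulliparous number 1 of every subpopulation. For Ifit2 the difference was 0.99 log2 in luminal Sca1-negative and 0.84 log2 in basal CD49f-high cells, and -0.25 log2 in luminal Sca1-positive cells.

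The parity effect on Irf1 was larger in basal than in luminal cells, by 0.89 log2 (SE 0.24, adjusted p = 0.0401), and Irf1 was the 1 member called in that test, against 2.04% of all genes. That call was lost in 15 of 35 fits that left out 1 sample. The effect on Ifi35 differed between basal CD49f-high and CD49f-low cells, at 0.73 log2 and -0.34 log2, by 1.07 log2 (SE 0.28, adjusted p = 0.0407), 1 member called against 2.27% of all genes. This call was lost without any 1 of 8 of the 11 basal samples. Between luminal Sca1-positive and Sca1-negative cells 0 members had a different parity effect, against 0.0953% of all genes, with 2 of 44 (4.55%) at an unadjusted p under 0.05, against 5.89% of all genes.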

How the data were processed

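Each probe set's deposited value is on a log2 scale: values ran between 1.74 and 13.28, and column medians between 5.813 and 5.924. The affy software was used per the submitters' processing notes; for its version, the normalization, the summary method and the genome build, the answer is not given in the sources used here. Per the labels, RNA was amplified with a NuGEN whole-transcript kit before hybridisation. Of 34760 probe sets, 21640 carried a single symbol in the supplied annotation, 1321 several and 11799 none, which gave 19937 genes; 0 columns were left unused.

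One limma 3.58.1 model with 12 group means took in all 35 samples (R 4.3.3, lmFit, eBayes with a trend), so groups share 1 estimate of the spread. Two-sided p-values had Benjamini-Hochberg adjustment across the 19937 genes, and SE are those of the moderated fit. The scripts were tested on simulated data. Members, lists, roles and tests were chosen with earlier results of these data known. All members could be named. Sample values or ranges were given for members called in a parity comparison (up to 10 by smallest adjusted p), for the 2 of each role with the largest moderated statistic in each comparison of subpopulations, and for regulators. Other pathway genes were counted per list, with up to 4 named per direction. The labels' replicate numbers were not taken as pairs. Over all genes, deviations of parous and nulliparous samples of 1 number correlated at -0.05 to 0.23, with 4 of 17 over 0.1.

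Alternatives were no trend, array weights, quantile normalization, leaving out dim genes (above 6 log2 in fewer than 3 samples), means of probe sets, blocks for pool or number, single subpopulations, and leaving out each sample. Leaving out nulliparous number 1 of every subpopulation was chosen after seeing the data. Promoters came from RefSeq windows. The number of arrays limits the precision.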

Additional observations from a re-analysis of the deposited data

Results flagged for a closer look

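Of the 44 members, 3 had a parity effect that differed between subpopulations by a test of the difference itself, each in another test. Each of these tests called 1 of 44 members (2.27%), a share near that of all genes. All genes gave 2.04% for basal against luminal, 2.27% for CD49f-high against CD49f-low and 2.80% among the 6 subpopulations. In fits that each left out 1 sample, the Irf1 call held in 20 of 35, the Ifi35 call in 27 and the Ubd call in 33. For Irf1 the parous minus nulliparous difference was 0.89 log2 larger in basal than in luminal cells (limma, adjusted p = 0.0401). For Ifi35 it was 1.07 log2 larger in basal CD49f-high than in basal CD49f-low cells (limma, adjusted p = 0.0407), with opposite signs in the 2 subpopulations. For Ubd the 6 parity effects spanned 3.39 log2 (limma, adjusted p = 0.0146), with the lowest in stromal cells.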

How the results depend on the processing

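Among the members' calls that were refitted under the alternatives, no direction was reversed. Other pathway genes, markers and members named beyond the rule (such as Gbp3, Cd74 and Oasl1) were not refitted gene by gene. Counts of members called between parous and nulliparous samples were small and moved in several settings. In luminal Sca1-negative cells the count was 0 and became 2 with array weights (Ifit2, Ubd) and 1 without dim genes, with pool as a random block, with the replicate block, without nulliparous number 1 of every subpopulation or fitted alone. In basal CD49f-low cells 0 became 3 with array weights (Irf1, Ddx58, Psmb8) and 1 without nulliparous number 1. In basal CD49f-high cells 4 became 1 with array weights, 7 with the replicate block and 0 fitted alone. In total epithelial cells 0 became 1 (Irf1) with means of probe sets or without nulliparous number 1. In stromal cells 2 became 1 without nulliparous number 1 and 0 fitted alone. Over the 4 sorted epithelial subpopulations 3 became 1 with pool as a random block, which ended the Ifit2 and Oasl2 calls. Between CD49f-high and CD49f-low cells 2 became 1 with array weights, quantile normalization or without nulliparous number 1. For differences between parity effects, stromal against epithelial 0 became 1 with array weights, basal against luminal 1 became 3 without nulliparous number 1, and CD49f-high against CD49f-low 1 became 2 without a trend, with quantile normalization, without dim genes, with pool or with the replicate block, and 0 with array weights or without nulliparous number 1. Among the 6 subpopulations 1 became 2 (Irf1, Ubd) with array weights, without dim genes, with means of probe sets, with either block or without nulliparous number 1. The cause was not tested. Over all genes, deviations of parous and nulliparous samples of 1 number correlated at a median of 0.07 over 17 pairs. Numbers were therefore not taken to pair the histories. For effectors and class II genes, however, number 3 lay below its group mean in most groups of both histories. Its mean deviation over the effectors was -0.23 log2 in parous and -0.18 log2 in nulliparous stroma. In total epithelial cells it was -0.19 and -0.10 log2, and in basal CD49f-low cells 0 and -0.11 log2. A cause of this was not tested. Within 1 history, samples of 1 number from different subpopulations correlated at 0.01 to 0.34 over 85 pairs, with 38 over 0.1, and may share a pool of mice.

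Leaving out each sample in turn gave 0 to 1 members called in luminal Sca1-negative and basal CD49f-low cells, 0 to 0 in luminal Sca1-positive and total epithelial cells, 1 to 7 in basal CD49f-high cells, 1 to 2 in stromal cells and 1 to 4 over the 4 sorted epithelial subpopulations. It gave 17 to 22 for stromal against epithelial, 19 to 22 for basal against luminal, 11 to 16 for Sca1-positive against Sca1-negative, 1 to 3 for CD49f-high against CD49f-low and 28 to 35 among the 6 subpopulations. For differences between parity effects it gave 0 to 1 for stromal against epithelial and for basal against luminal, 0 to 0 for Sca1, and 0 to 2 for CD49f and among the 6 subpopulations. Of the 44 members 7 did not pass the filter on dim genes, and small differences in them are hard to see.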

Other observations

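Interferons and their receptors were measured on the same arrays. The ligands Ifng, at 5.66 to 6.25 log2 over all 35 samples, and Ifne, at 3.90 to 4.62 log2, were called in 0 of 15 comparisons. Of the other ligands, Ifnb1 was called in 1 comparison, higher in stromal than in total epithelial cells, and Ifnk in 1, lower in luminal Sca1-positive than in Sca1-negative cells (estimate -0.82 log2, SE 0.23, limma adjusted p = 0.0121). These genes were picked out after their values were seen. Ifngr1, the ligand-binding chain of the interferon gamma receptor, had a lowest, median and highest level of 9.38, 9.69 and 9.87 log2 in 6 stromal samples, against 8.33, 8.50 and 8.69 log2 in 6 total epithelial samples, and the difference was 1.19 log2 (SE 0.12, limma adjusted p = 5.0e-09). Ifngr1 was called in 3 of 15 comparisons, also lower in luminal Sca1-positive than in Sca1-negative cells and higher in parous basal CD49f-high samples. Its partner chain Ifngr2 was lower in basal than in luminal cells (estimate -0.78 log2, SE 0.12, limma adjusted p = 7.1e-06), with medians of 7.43 log2 in basal CD49f-high and 7.81 log2 in basal CD49f-low cells, against 8.59 log2 in luminal Sca1-positive and 8.32 log2 in luminal Sca1-negative cells. Il10rb, a chain shared by the receptors of interferon lambda and interleukin 10, had a median of 6.64 log2 in stromal samples, against 5.46 log2 in total epithelial samples (1.25 log2, SE 0.15, limma adjusted p = 9.4e-08). The interferon lambda receptor gene Ifnlr1 was called in the same comparison in the other direction. It had 5.50 to 5.75 log2 in stromal samples, against 5.93 to 6.41 log2 in total epithelial samples.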
